A study of Mus musculus with 47 samples.

Results

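The 6 genes described here encode partners of neuron-to-microglia contact, measured by bulk RNA sequencing of mouse cortex: the neuronal ligands *Cx3cl1*, *Cd200* and *Cd47* and the myeloid receptors *Cx3cr1*, *Cd200r1* and *Sirpa*. These 6 genes were chosen by symbol and matched by Ensembl identifier, out of 54281 genes with deposited values. All 6 were found, and 5 of them averaged 1 TPM or more over all libraries and so were among the 14580 genes tested, whereas *Cd200r1* averaged less. TPM is a share of the transcripts of a library that takes the length of each transcript into account. The tissue was microdissected cortex of male C57BL/6J mice of about 3 months, kept in a light and dark cycle with lights on at Zeitgeber time 0 (ZT0) and off at ZT12. Of 47 mice with 1 library each, 23 had eaten control chow and 24 chow with 1200 ppm PLX5622 for 10 days. The paper states that 4 mice shared a cage. The sample labels do not name the cages, so the spread between cages could not be estimated. Each diet was sampled every 4 h from ZT2 to ZT22, at 6 times, with 4 libraries per group and 3 in the control group at ZT14. PLX5622 inhibits CSF1R, the receptor through which microglia receive their survival signal, and as a drug in food it is not restricted to the brain. The comparison of diets asks which of these transcripts depend on the presence of microglia, and the comparison of Zeitgeber times asks whether they follow the day.

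The 3 ligands are membrane proteins that neurons carry in large amounts, and each binds a receptor on myeloid cells. CX3CL1 (fractalkine) is a chemokine on a membrane stalk that can be cut off by proteases, and it signals through the G protein-coupled receptor CX3CR1, which in the healthy brain is found mainly on microglia. CD200 binds CD200R1, whose tail recruits DOK adaptors, and CD47 binds SIRPα, whose tail recruits the phosphatases SHP-1 and SHP-2; both pairs restrain myeloid cells, the latter being known as a signal against phagocytosis. SIRPα is named a myeloid receptor here, but neurons also carry it at their synapses. The ligands are named neuronal, but bulk tissue does not show which cells a transcript came from.

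In GENCODE M21, on the mm10 (GRCm38) assembly, all 6 are protein-coding genes. *Cx3cl1* lies on chromosome 8 at 94772009 to 94782427 and *Cx3cr1* on chromosome 9 at 119901616 to 120069879. *Cd200* (45382135 to 45409053), *Cd47* (49800533 to 49915010) and *Cd200r1* (44765736 to 44794978) lie on chromosome 16, and *Sirpa* lies on chromosome 2 at 129592835 to 129632228. The annotated span of *Cx3cr1* overlaps 9 other genes and those of the other members overlap none; whether strand was used in counting is not given in the sources used here. Promoter windows from RefSeq (GRCm38.p6), 300 bases long, were matched for 4 of the 6 genes. The windows of the fractalkine pair are shown because its ligand and its receptor differed most in their response to the diet, with CG dinucleotides in capitals. The first is chr8:94771930-94772229 on the plus strand and the second chr9:120068247-120068546 on the minus strand, each written 5′ to 3′.
Cx3cl1: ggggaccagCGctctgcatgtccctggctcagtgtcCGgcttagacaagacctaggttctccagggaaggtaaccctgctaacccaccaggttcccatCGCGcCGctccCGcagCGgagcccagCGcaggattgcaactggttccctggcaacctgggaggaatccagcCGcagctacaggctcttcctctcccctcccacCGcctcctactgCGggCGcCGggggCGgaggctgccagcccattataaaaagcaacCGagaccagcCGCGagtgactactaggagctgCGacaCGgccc
Cx3cr1: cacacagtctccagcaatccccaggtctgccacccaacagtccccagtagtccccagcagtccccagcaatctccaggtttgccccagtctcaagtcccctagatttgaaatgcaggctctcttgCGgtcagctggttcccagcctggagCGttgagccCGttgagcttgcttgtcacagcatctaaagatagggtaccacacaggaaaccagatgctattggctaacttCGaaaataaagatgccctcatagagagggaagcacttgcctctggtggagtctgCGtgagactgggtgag
The window of *Cx3cl1* held 19 CG dinucleotides and that of *Cx3cr1* held 5, against a median of 7 over the 32851 windows in the table. GAGGAA, the core bound by the myeloid factor PU.1, was found on either strand 2 times in the window of *Cx3cl1* and 0 times in that of *Cx3cr1*, and 28.3% of all windows held it. CACGTG, the E-box bound by the clock factors, was in neither window and in 7.15% of all. These matches are descriptions of letters in the windows.

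The libraries held 16597987 to 27626161 counted reads, with mitochondrial transcripts at 6.46% to 10.0% of them. Every one of the 16 microglia markers, a list that held none of the 6 genes, was lower in PLX5622 mice, and their summed level was 571 to 872 TPM in control libraries and 27.6 to 131 TPM in PLX5622 libraries. None of the 10 neuron markers passed the test, and their summed level was 2981 to 4725 TPM in control and 3011 to 4517 TPM in PLX5622 libraries, so neuronal transcripts were abundant in both. Striatal neuron markers were present too (summed level 188 to 972 TPM in control and 269 to 858 TPM in PLX5622 libraries; 0 of 6 called). Markers of border macrophages fell as well (3 of the 3 tested; summed level 12.3 to 25.3 TPM in control and 0.828 to 4.30 TPM in PLX5622 libraries). Of the other lists, 2 of 6 choroid plexus markers were higher in PLX5622 mice, as was 1 of 6 astrocyte markers, *Gfap*. The summed level of the choroid plexus markers varied widely, from 67.6 to 1189 TPM in control and from 147 to 1272 TPM in PLX5622 libraries. Over all 14580 genes tested, 127 were called higher and 376 lower, 3.45% in either direction.

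Before any comparison, the 6 transcripts covered a wide range of levels in control cortex. *Cx3cl1* was the most abundant, with a lowest, median and highest value of 140, 208 and 314 TPM over 23 control libraries. *Sirpa* followed with 110, 131 and 171 TPM. *Cd200* gave 34.6, 57.6 and 79.6 TPM and *Cd47* 35.5, 49.7 and 62.4 TPM. *Cx3cr1* gave 17.8, 21.5 and 26.1 TPM, and *Cd200r1* only 0.159, 0.403 and 0.712 TPM, from 4 to 20 reads per library. This order held in all 23 control libraries at each step but 1: *Cd200* was above *Cd47* in 18 of 23. The ranges of these neighbours overlapped, and their difference in level within libraries was not tested. In PLX5622 mice the order of the means was the same, with *Cd200* above *Cd47* in 23 and *Cx3cr1* above *Cd200r1* in 23 of 24 libraries. Thus each neuronal ligand of the fractalkine and CD200 pairs exceeded its receptor in every control library, while *Sirpa* exceeded its ligand *Cd47*.

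**Figure D1:**
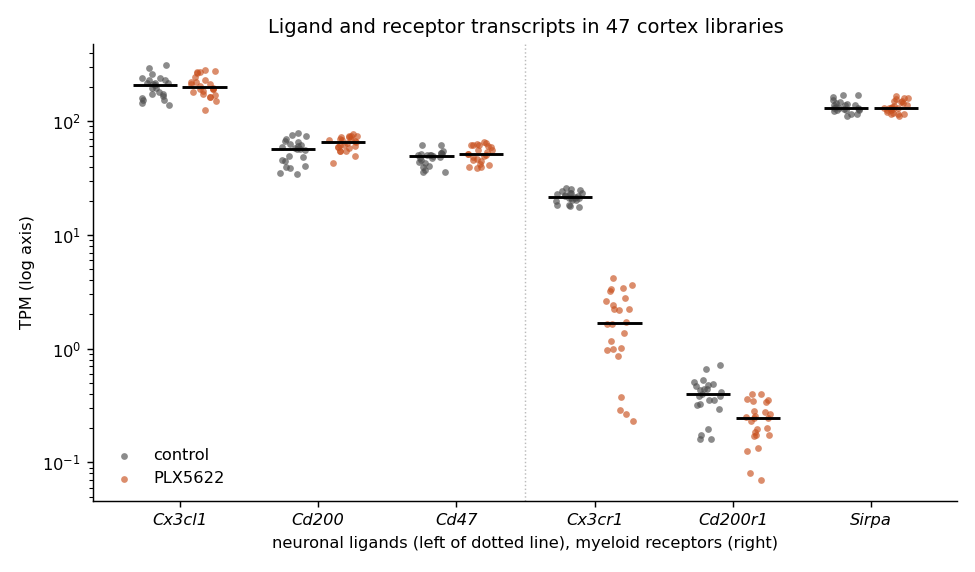
Level of each transcript in TPM (log axis) in 23 control and 24 PLX5622 libraries; each point is a library and each bar the median of a diet. *Cx3cr1* separates the diets, from 17.8 to 26.1 TPM in control and from 0.233 to 4.21 TPM in PLX5622 libraries, while the points of the 3 ligands and of *Sirpa* overlap.

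*Cx3cr1*, the fractalkine receptor, fell to 8.57% of its control mean with PLX5622. Its lowest, median and highest levels were 0.233, 1.68 and 4.21 TPM over 24 PLX5622 libraries, and all 24 were below every control library. The mean was 21.8 TPM ± 2.35 (SD, n = 23) in control and 1.87 TPM ± 1.16 (SD, n = 24) in PLX5622 mice. On the log2(TPM + 1) scale the change was -3.11 (SE 0.13, 95% interval -3.37 to -2.84; adjusted p = 1.63e-24, limma with Benjamini-Hochberg adjustment over 14580 genes). In that test 503 genes, 3.45% of those tested, differed between diets, and the 376 that were lower in PLX5622 mice made up 2.58%; the other 127 were higher. On FPKM made from the counts the split was 420 higher and 464 lower, and with 3 principal components of the residuals as covariates 1719 higher and 839 lower. *Cx3cr1* was the 1 gene among the 5 members tested that passed. In bulk tissue, fewer cells of a type and less RNA per cell cannot be told apart. The paper stained the other hemisphere of these mice for IBA1 and reports that most microglia were lost. How much of the fall of *Cx3cr1* this accounts for was not tested. The relative spread between mice was wider with the inhibitor, with a coefficient of variation of 62.4% in PLX5622 and 10.8% in control libraries.

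The ligand of this receptor did not follow it. *Cx3cl1* gave a lowest, median and highest level of 125, 201 and 280 TPM over 24 PLX5622 libraries, and the range of the controls enclosed 23 of them. Means were 205 TPM ± 46.1 (SD, n = 23) in control and 208 TPM ± 42.9 (SD, n = 24) in PLX5622 mice. The log2 change was 0.02 (95% interval -0.15 to 0.19; limma adjusted p = 0.932), and its sign turned under other scalings. Within libraries, the ratio of *Cx3cl1* to *Cx3cr1* had a median of 9.24 in control (6.02 to 13.6) and 117 in PLX5622 mice (40.2 to 743). All 24 PLX5622 libraries were above every control in this ratio, and the difference of log2(TPM + 1) between ligand and receptor rose by 3.13 (permutation p = 1e-05, the smallest that 100000 permutations can give; adjusted p = 3e-05 over 9 pairs of members).

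*Cd200* had the next largest change among the members tested, and it did not pass the threshold. Over 24 PLX5622 libraries its lowest, median and highest levels were 42.8, 65.6 and 77.4 TPM, and 19 of them were above the control median of 57.6 TPM, although none was above the highest control. Means were 55.8 TPM ± 13.2 (SD, n = 23) in control and 64.0 TPM ± 8.68 (SD, n = 24) in PLX5622 mice. The log2 change was 0.21 (SE 0.08, 95% interval 0.06 to 0.37), with an unadjusted p = 0.0079 and an adjusted p = 0.127 in limma. Without the PLX5622 library ZT10 replicate 2, whose 42.8 TPM was the lowest of its diet, the change was 0.24 and the adjusted p 0.0397 in limma. With 3 principal components of the residuals as covariates, the same change had an adjusted p of 0.00041 in limma, and *Cd47* passed with 0.00058. That fit called 2558 genes (17.5%). Its components were taken from the residuals of the same diet model, so they lower the residual spread and leave each change as it was. Smaller p-values were fixed in advance by this, and these passes are not further support for a change.

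Its receptor *Cd200r1* was near the limit of what could be counted. The PLX5622 libraries gave a lowest, median and highest level of 0.0699, 0.243 and 0.400 TPM, from 2 to 14 reads. All 24 were below the control median of 0.403 TPM, and 4 were below every control library. The mean was 0.395 TPM ± 0.143 (SD, n = 23) in control and 0.240 TPM ± 0.0937 (SD, n = 24) in PLX5622 mice, or 60.7% of control. Because the gene was left out by the filter, it was tested without one, a choice made after its values were seen. There the change of log2(TPM + 1) was -0.17 (95% interval -0.24 to -0.09; adjusted p = 0.00508 in limma over 33748 genes, of which 2.12% were called). On the counts, where no pseudocount of 1 TPM compresses a low gene, the log2 change was -0.64 in edgeR (adjusted p = 0.0155; 5.35% of 22719 genes called) and -0.65 in DESeq2 (adjusted p = 0.0116; 6.35% of 21388 genes called). The ratio of *Cd200* to *Cd200r1* had a median of 146 in control and 262 in PLX5622 mice, and the ranges overlapped (52.8 to 384 and 156 to 1053). The difference of log2(TPM + 1) within the pair rose by 0.39 (permutation p = 7e-05, adjusted p = 0.000158), by 0.28 on FPKM made from the counts (adjusted p = 0.00245) and by 0.76 with a pseudocount of 0.1 TPM (adjusted p = 2.25e-05).

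Neither *Cd47* nor its receptor *Sirpa* passed the test. *Cd47* gave 39.0, 51.7 and 66.4 TPM as lowest, median and highest over 24 PLX5622 libraries, with 4 of them above every control. Its means were 48.0 TPM ± 7.15 (SD, n = 23) and 52.3 TPM ± 8.80 (SD, n = 24), and its log2 change was 0.11 (95% interval -0.02 to 0.25; limma adjusted p = 0.399). *Sirpa* gave 112, 132 and 167 TPM with PLX5622, and no library of that diet left the range of the controls. Its means were 137 TPM ± 16.4 (SD, n = 23) and 136 TPM ± 16.2 (SD, n = 24). The log2 change of *Sirpa* was -0.01 (limma adjusted p = 0.933), and the 95% interval of -0.11 to 0.09 did not reach the change of *Cx3cr1*. The ratio of *Cd47* to *Sirpa* was narrow in both diets, with a median of 0.352 (0.286 to 0.406) in control and 0.385 (0.321 to 0.454) in PLX5622 libraries. The within-library difference rose by 0.13 on the log2 scale (permutation p = 0.00107, adjusted p = 0.00193), and 6 of 24 PLX5622 libraries were above every control.

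**Figure D2:**
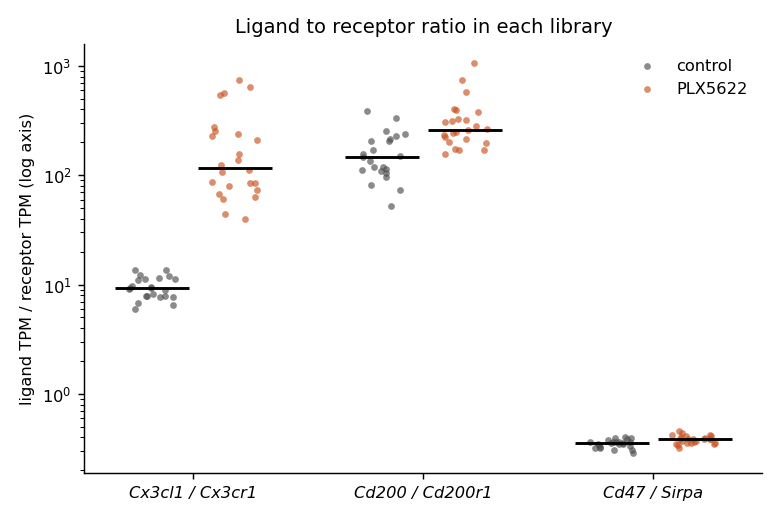
Ratio of ligand TPM to receptor TPM (log axis) in each library for the 3 pairs; points are libraries and bars are medians by diet. The median of *Cx3cl1* over *Cx3cr1* goes from 9.24 to 117 with no overlap, that of *Cd200* over *Cd200r1* from 146 to 262, and that of *Cd47* over *Sirpa* from 0.352 to 0.385.

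The 3 receptors did not change by the same amount. *Cx3cr1* fell by 3.10 more than *Sirpa* and by 2.94 more than *Cd200r1* on the log2(TPM + 1) scale. In both differences all 24 PLX5622 libraries were below every control (each permutation p = 1e-05 and adjusted p = 3e-05). From a control mean of 0.395 TPM, *Cd200r1* could fall only little on this scale, so its difference from *Cx3cr1* was largely set by its low level. With a pseudocount of 0.1 TPM or on FPKM, that difference was between -3.26 and -2.76. *Cd200r1* fell by 0.16 more than *Sirpa* (permutation p = 0.0137, adjusted p = 0.0176), and on FPKM made from the counts this pair differed by -0.07 with an adjusted p of 0.147. With a pseudocount of 0.1 TPM in place of 1 it differed by -0.53 (adjusted p = 0.000576, permutation test). Among the ligands, the difference of *Cx3cl1* minus *Cd200* changed by -0.20 (adjusted p = 0.0107, permutation test) and that of *Cx3cl1* minus *Cd47* by -0.09 (adjusted p = 0.0317, permutation test). The latter lost its call on leaving out any of 9 single libraries, with adjusted p-values up to 0.0725. *Cd200* minus *Cd47* changed by 0.10 (adjusted p = 0.0969, permutation test), and passed the threshold without control ZT10 replicate 3 (0.13, adjusted p = 0.0394) or control ZT14 replicate 2 (0.12, adjusted p = 0.0446).

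The diets were compared again within each Zeitgeber time. At each of the 6 Zeitgeber times *Cx3cr1* was lower in PLX5622 mice and was the 1 member called by limma among the 5 tested. Its control libraries had a mean of 23.3 TPM ± 2.13 (SD, n = 4) at ZT2, 22.3 TPM ± 1.37 (SD, n = 4) at ZT6, 23.03 TPM ± 1.92 (SD, n = 4) at ZT10, 21.2 TPM ± 2.84 (SD, n = 3) at ZT14, 19.0 TPM ± 1.56 (SD, n = 4) at ZT18 and 21.7 TPM ± 2.48 (SD, n = 4) at ZT22. The PLX5622 libraries gave 1.70, 0.288, 0.374 and 2.18 TPM at ZT2, 3.43, 4.21, 1.01 and 1.37 TPM at ZT6, and 3.32, 0.233, 0.268 and 3.64 TPM at ZT10. In the dark phase they gave 2.25, 0.858, 0.985 and 0.969 TPM at ZT14, 2.62, 1.65, 2.22 and 3.18 TPM at ZT18, and 2.78, 2.40, 1.66 and 1.18 TPM at ZT22. The 4 libraries with the least *Cx3cr1* were a pair at ZT2 and a pair at ZT10, and their companions at the same time were several times higher. The log2 change was -3.62 at ZT2, -2.85 at ZT6, -3.34 at ZT10, -3.33 at ZT14, -2.56 at ZT18 and -2.94 at ZT22, with adjusted p-values in limma from 2.9e-11 to 2.93e-07. For reading the call of 1 member in 5, the shares of all tested genes called were 1.29%, 1.01%, 1.07%, 0.905%, 0.809% and 1.3% in the same order of times.

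**Figure D3:**
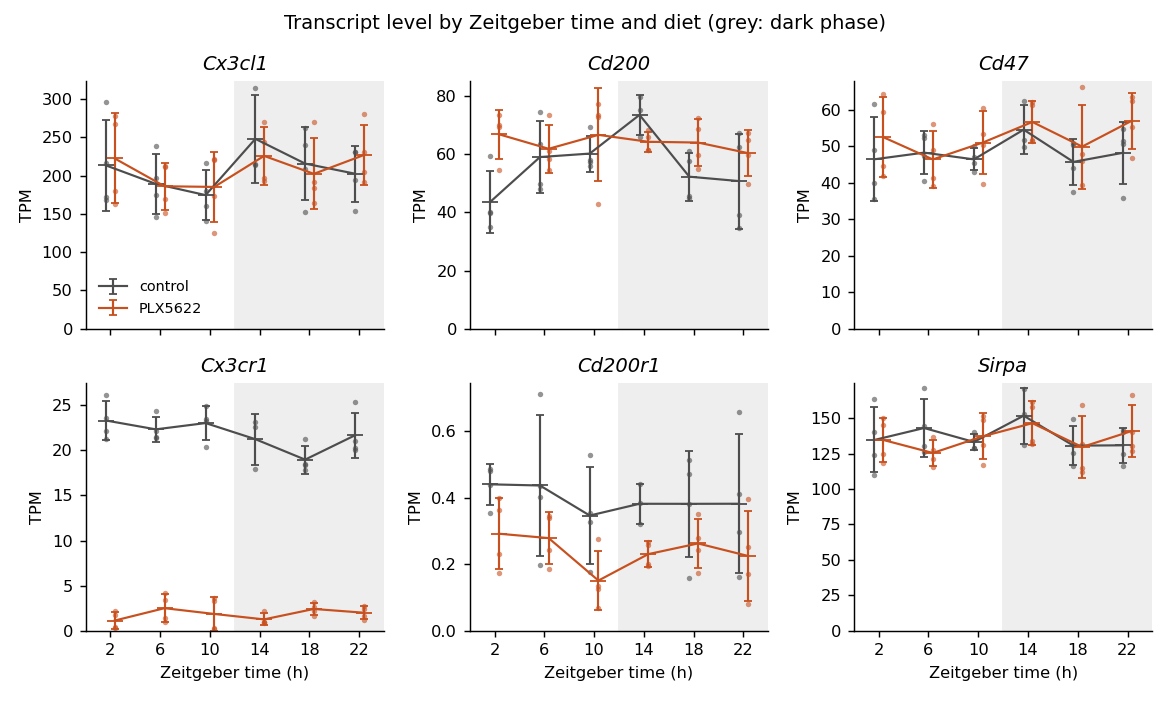
TPM of each gene against Zeitgeber time in hours, with points for libraries, lines joining the group means and bars of 1 SD (3 or 4 libraries per group); grey marks the dark phase. *Cx3cr1* of PLX5622 mice lies below that of control mice at every time, and control *Cd200* is lowest at ZT2 (mean 43.6 TPM) and highest at ZT14 (mean 73.5 TPM).

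*Cd200* had the widest relative span of group means among the ligands in control mice, 43.6 to 73.5 TPM, against 175 to 248 TPM for *Cx3cl1* and 45.8 to 54.6 TPM for *Cd47*. At ZT2 the control libraries gave 39.9, 35.02, 40.2 and 59.4 TPM and the PLX5622 libraries 54.5, 69.2, 70.2 and 73.7 TPM, so that 3 of the 4 control libraries were below all those of PLX5622 mice. At ZT14 the control libraries gave 65.9, 79.6 and 75.1 TPM and the PLX5622 libraries 61.3, 61.6, 68.3 and 66.1 TPM, and the ranges overlapped. The log2 change was 0.62 at ZT2 (unadjusted p = 0.0013, adjusted p = 0.0902 in limma) and -0.19 at ZT14 (unadjusted p = 0.339 in limma). Without control ZT2 replicate 4, PLX5622 ZT2 replicate 1 or PLX5622 ZT10 replicate 2, the change at ZT2 was 0.78, 0.72 or 0.62, with limma adjusted p-values of 0.0159, 0.0483 and 0.0419. On the counts edgeR gave 0.44 at ZT2 (adjusted p = 0.309) and -0.04 at ZT14 (adjusted p = 1). *Cx3cl1*, *Cd47* and *Sirpa* differed between diets by -0.18 to 0.24 on the log2 scale over the 6 times, with limma adjusted p-values from 0.741 to 1. For *Cd200r1*, edgeR gave log2 changes from -0.94 at ZT10 to -0.46 at ZT6, with adjusted p-values from 0.639 to 1.

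No member was called rhythmic over 24 h. With JTK_CYCLE, a rank test for rhythms, 11 genes (0.0754%) were called in control and 89 (0.61%) in PLX5622 mice, and 0 of the 5 members in either. At an unadjusted p under 0.05 there were 2 members and 1243 genes (8.53% of those tested) in control mice, and 0 members and 1615 genes (11.1%) in PLX5622 mice. The 2 members were *Cx3cr1*, with a peak at ZT6 (p = 0.0371, adjusted p = 0.516, exact null of JTK_CYCLE), and *Cd200*, with a peak at ZT14 (p = 0.0493, adjusted p = 0.561, exact null of JTK_CYCLE). On FPKM *Cd200* had an unadjusted p of 0.162 in the same exact test, and with 1 control library left out 0 to 2 members were under 0.05, with 0 in 4 of the 23 such runs. A cosine fitted to *Cd200* had an amplitude of 0.29 on the log2 scale in control and 0.02 in PLX5622 mice, and its rhythm in control mice had an adjusted p of 0.27 in limma. For a difference in rhythm between diets, *Cd200* had an unadjusted p of 0.0382 in limma, whose adjusted p was close to 1, and an adjusted p of 0.913 in edgeR. In this comparison 0 of 14580 genes (0%) passed in limma, with 669 at an unadjusted p under 0.05, and 0 of 22719 passed in edgeR, with 1165 at an unadjusted p under 0.05.

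The libraries of 1 diet also differed in their content of microglial transcripts, and the members were set against it. The mean log2(TPM + 1) of the 16 microglia markers ran from 4.68 to 5.24 in control and from 1.02 to 2.79 in PLX5622 libraries. After removal of the means of each Zeitgeber time, *Cx3cr1* followed this marker mean within both diets (control: Pearson r = 0.919, Spearman rho = 0.829, permutation p = 4e-05 and 0.00025; PLX5622: r = 0.967, rho = 0.964, each p = 1e-05; adjusted p = 0.00024 and 0.00012 for r over 12 relations). Without the 2 libraries farthest from the median it still did in control (r = 0.920) and in PLX5622 mice (r = 0.962). On FPKM the relation of *Cx3cr1* was weaker in control mice (r = 0.765, adjusted p = 0.0131, permutation test) and was r = 0.973 in PLX5622 mice. *Sirpa* gave r = 0.677 and rho = 0.561 in control mice (permutation p = 0.00377 and 0.0179, adjusted p = 0.0151 and 0.0537) and r = 0.163 in PLX5622 mice (permutation p = 0.486). *Cd47* gave r = 0.570 and rho = 0.563 in control mice (permutation p = 0.015 and 0.0173, adjusted p = 0.0449 and 0.0537) and r = 0.067 in PLX5622 mice. These relations of *Sirpa* and *Cd47* lost their calls without the 2 farthest libraries (r = 0.616 and 0.498) and on FPKM (r = 0.297 and 0.082). *Cx3cl1* gave r = 0.540 in control mice (permutation p = 0.0235, adjusted p = 0.0563), and *Cd200* and *Cd200r1* lay between -0.08 and 0.18 in both diets.

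Set against the mean of 10 neuron markers instead, a relation added after the values were seen, the members were divided otherwise. *Cx3cl1* gave r = 0.885 in control and 0.898 in PLX5622 mice, *Cd200* 0.758 and 0.733, *Cd47* 0.912 and 0.933, and *Sirpa* 0.892 and 0.877. For r, all 8 relations had a permutation p of 0.0007 or less and an adjusted p of 0.00105 or less, and Spearman's rho ran from 0.696 to 0.912. Replicate 4 was above replicate 1 in 10 of 11 groups for the neuron marker mean, *Cx3cl1*, *Cd200* and *Cd47*, and in all 11 for *Sirpa*. The permutations ignored this order, so these p-values do not allow for it. *Cx3cr1* gave r = 0.556 in control (adjusted p = 0.0273, permutation test) and 0.135 in PLX5622 mice, and *Cd200r1* 0.033 and 0.010. The relation of *Cx3cr1* in control mice was 0.466 without the 2 farthest libraries (adjusted p = 0.0734, permutation test) and turned to -0.21 on FPKM. The first principal component of the residuals of all tested genes, which held 15.8% of their variance, had an absolute correlation with the same 4 genes of 0.741 to 0.933 over the 47 libraries, against 0.178 for *Cx3cr1* and 0.006 for *Cd200r1*; its part in these relations was not tested.

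**Figure D4:**
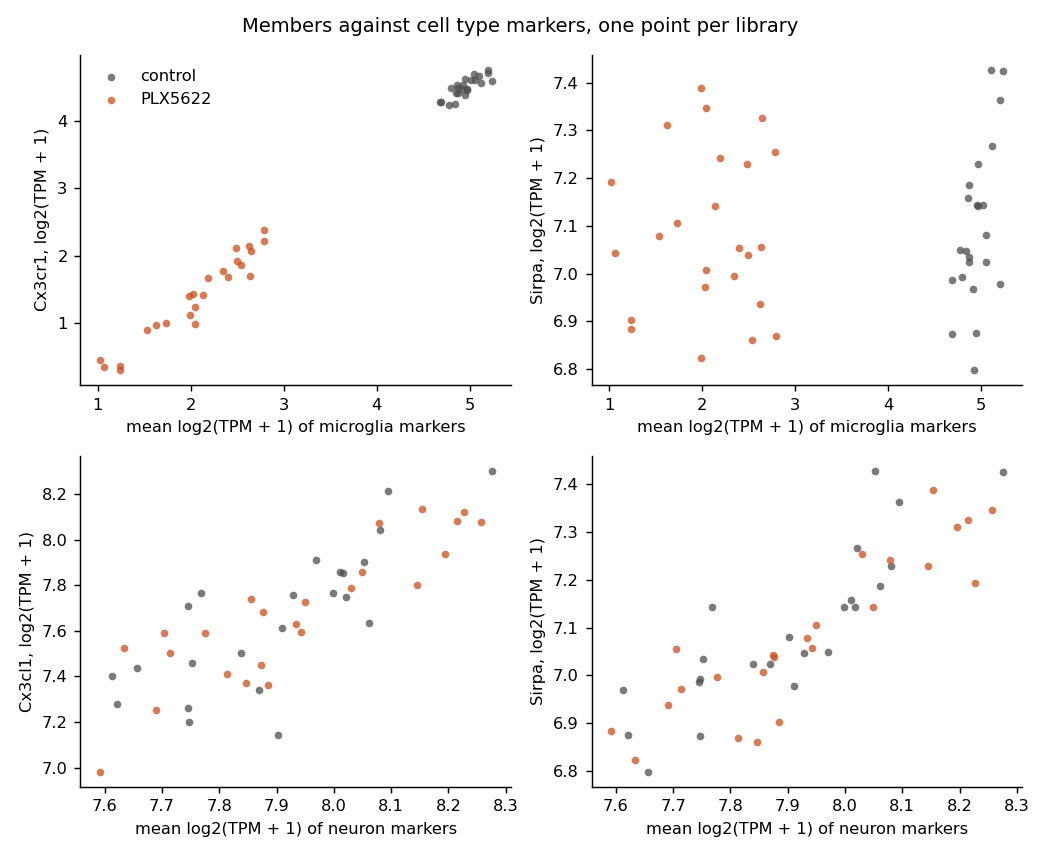
Each point is a library, with the mean log2(TPM + 1) of microglia markers (top) or neuron markers (bottom) on the x axis and log2(TPM + 1) of the named gene on the y axis. *Cx3cr1* lies along the microglia markers in both diets, whereas *Sirpa* spans the same range in both diets and lies along the neuron markers, as does *Cx3cl1*.

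The genes whose levels were most like each member over the 47 libraries were taken by Pearson's r of log2(TPM + 1), as a description. For *Cx3cr1* they were *Selplg* (r = 0.994), *Ctss* (0.993) and *Mpeg1* (0.992). For *Cd200r1* they were *Abi3* (0.620), *Cd33* (0.576) and *Rac2* (0.571). Those of *Cx3cl1* were *Mmp17*, *Vgf* and *Scn2b* (0.922 to 0.934), those of *Cd200* included *Usp14* and *Atp6ap2* (0.829 each), and those of *Cd47* were *Scn2b*, *Gpr158* and *Atrn* (0.937 to 0.946). For *Sirpa* they were *Clstn1*, *Dnm1* and *Pak1* (0.933 to 0.937). For *Cx3cr1* and *Cd200r1*, part of the likeness comes from the difference between diets that these libraries share.

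The genes around the 3 receptors were then counted, on lists whose direction is read against a median log2 change of 0.03 over all 14580 genes. Over all these genes the share called was 3.45%, and 2.58% were lower in PLX5622 mice. The lists here and below were chosen with earlier results of these data known. A list of relatives of CD200R1 and SIRPα, with the adaptor of those relatives, had 1 of 7 genes past the filter. This was *Tyrobp*, which encodes that adaptor, DAP12, and it fell from 79.1 to 8.36 TPM (log2 change -3.30, SE 0.18). The other 6 (*Cd200r2*, *Cd200r3*, *Cd200r4*, *Sirpb1a*, *Sirpb1b* and *Sirpb1c*) had means of at most 0.0555 TPM in either diet. Their sequences resemble those of *Cd200r1* and *Sirpa*, so values of these relatives are uncertain where reads could be assigned to more than 1 gene. Of 10 tested signalling partners of the receptors, 3 fell and 0 rose (median -0.14). *Ptpn6*, which encodes SHP-1, fell from 3.85 to 0.855 TPM (log2 change -1.47, SE 0.12), and *Fyb*, an adaptor of hematopoietic cells, from 5.56 to 0.702 TPM (-1.95, SE 0.13). *Arrb2*, an arrestin that binds active receptors, fell from 25.4 to 20.8 TPM (-0.28, SE 0.06). *Ptpn11*, which encodes SHP-2, was at 63.2 and 64.1 TPM (0.02, limma adjusted p = 0.903). The G protein subunits gave log2 changes of 0.00 for *Gnb1* and -0.11 for *Gnai2* (limma adjusted p = 0.961 and 0.0896). So of the transcripts of the 2 phosphatases recruited by SIRPα, *Ptpn6* fell and *Ptpn11* had a 95% interval of -0.09 to 0.12. The proteins were not measured, and the difference between these 2 changes was not tested itself.

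Of 9 tested proteases, modifiers and other binding partners of the ligands, 1 fell and 0 rose (median 0.07). This was *Ctss*, cathepsin S, a protease of microglia that can release fractalkine from the membrane, which went from 94.3 to 8.62 TPM (log2 change -3.50, SE 0.17). *Adam10*, another protease that cuts fractalkine, was at 20.5 and 21.4 TPM (0.05, limma adjusted p = 0.671). *Itgb1* and *Itgav*, integrin subunits, gave 0.01 and 0.07 (limma adjusted p = 0.891 and 0.712).

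Other signals to microglia and other microglial receptors were counted in the same way. Of 9 tested signals, 1 rose and 2 fell (median 0.10). The chemokine *Cxcl12* rose from 25.3 to 29.4 TPM (log2 change 0.21, SE 0.05, limma adjusted p = 0.0057). The cytokine *Tgfb1* fell from 4.78 to 1.79 TPM (-1.05, SE 0.06) and *Pros1*, a bridging ligand of TAM receptors, from 6.63 to 5.31 TPM (-0.27, SE 0.07). The signals with the highest levels among those not called were *Icam5* (0.04), *Gas6* (-0.05) and *Il34*, the neuronal ligand of CSF1R (0.12), with limma adjusted p-values from 0.434 to 0.76. Of 11 tested receptors, 8 fell and 0 rose (median -1.10). *Csf1r*, the target of the inhibitor, fell from 51.6 to 4.19 TPM (-3.54, SE 0.19), and the purinergic receptor *P2ry12* from 42.1 to 3.32 TPM (-3.44, SE 0.14). *Siglech* (-3.15), the complement receptor subunits *Itgam* (-2.56) and *Itgb2* (-1.47), the TGF-β receptors *Tgfbr1* (-1.10) and *Tgfbr2* (-0.38) and *P2ry6* (-1.03) fell too. *Csf1r*, *P2ry12* and *Ctss* also stand in the list of microglia markers. *Axl* and *Mertk*, which encode TAM receptors, gave -0.03 and -0.13 (limma adjusted p = 0.82 and 0.277), and *Cxcr4*, the receptor of CXCL12, gave 0.12 (0.546).

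**Figure D5:**
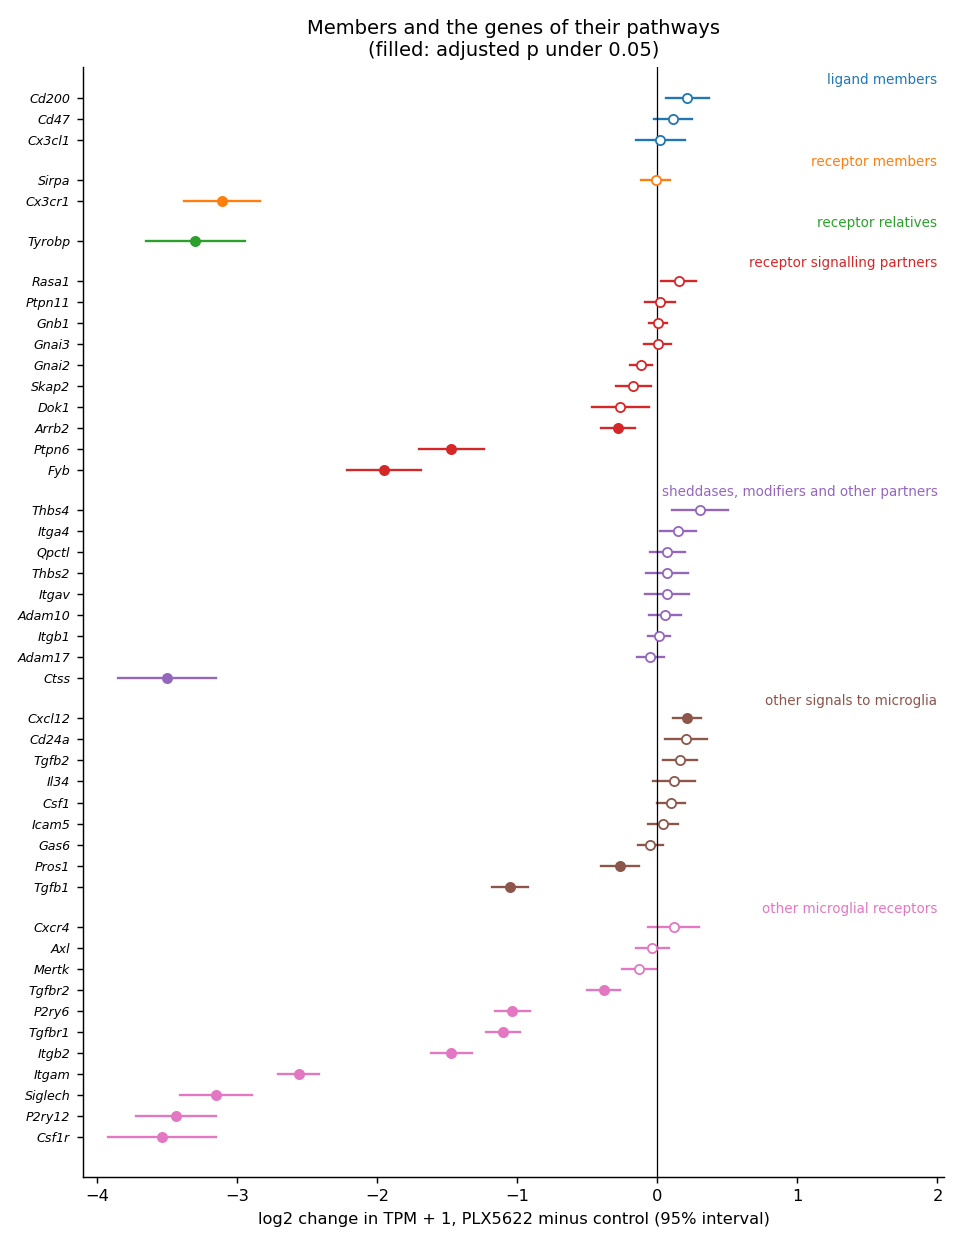
Change of log2(TPM + 1), PLX5622 minus control, with its 95% interval for each member and each gene of the lists that entered the test; filled points passed an adjusted p of 0.05. *Cx3cr1* (-3.11) lies with *Tyrobp*, *Ctss*, *Csf1r* and *P2ry12* (-3.30 to -3.54), and *Sirpa* and the 3 ligands lie between -0.01 and 0.21.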

How the data were processed

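Both deposited tables were used: TPM values, and whole-number counts that the authors deposited without normalization in a file named for FPKM. The TPM were made with STAR and Salmon on GRCm38.p6; the counter, build and annotation of the count table are not given for that table in the sources used here, although the submitters' notes name STAR, featureCounts and mm10. Dividing the counts by GENCODE M21 exon lengths and depth gave FPKM.

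The 6 members and all gene lists were chosen with earlier results of these data known. Groups came from the sample labels. Diet was tested with limma 3.58.1 (R 4.3.3) on log2(TPM + 1) of the genes averaging 1 TPM or more, modelled on diet and a 24 h cosine and sine; each Zeitgeber time was a contrast of a 12-group fit, and rhythm differences an F test of the interactions. JTK_CYCLE was written here (6 phases, exact null). P-values were adjusted by Benjamini-Hochberg with a threshold of 0.05. Differences between members used 100000 two-sided permutations of diet within Zeitgeber times, and relations with markers 100000 permutations within Zeitgeber times. Fits on counts used edgeR 4.0.16 and DESeq2 1.42.0 for genes with a mean count of at least 1. These tests, except the edgeR contrasts by Zeitgeber time, were also run on simulated data with known changes. There genes were drawn independently of each other, and limma by Zeitgeber time was checked at ZT6 only.

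Genes named were the 6 members, every gene of the pathway lists past the diet threshold and up to 3 others per list with the highest mean TPM, and for each member the 3 most correlated genes, of which 1 is not reported here. Sequences were copied from RefSeq windows, and motifs were sought on both strands. Figures were drawn with matplotlib 3.10.9. Median depth was 18314954 counts in control and 21476967.5 in PLX5622 libraries. Between the 69 pairs of libraries of 1 group the chi-square per degree of freedom was at least 4.30, so none of these pairs was 1 library deposited again. Libraries of different groups were not compared in this way. Same-numbered libraries of different groups correlated by 0.02 to 0.09 on average in their residuals, and those with different numbers by -0.02; not every pair exceeded 0.1, the level set for pairing, so the numbers were not taken to pair the mice. Alternatives were filters, pseudocounts, scalings, FPKM, edgeR, DESeq2, a replicate block, ZT as a factor, residual components, a variance trend and each library left out in turn.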

Additional observations from a re-analysis of the deposited data

Results flagged for a closer look

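Of 66 groups of 4 libraries tested for a value apart from the others (11 groups for each of 6 genes), 3 had one, and chance flags about 1 in 20. *Cd200* in control ZT10 replicate 3 was at 69.5 TPM, above 55.9 to 58.1 TPM in the other 3. *Cd200* in PLX5622 ZT10 replicate 2 was at 42.8 TPM, below 72.8 to 77.4 TPM in the other 3. *Cx3cr1* in PLX5622 ZT14 replicate 1 was at 2.25 TPM, above 0.858 to 0.985 TPM in the other 3.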

How the results depend on the processing

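The change of *Cx3cr1* kept its direction and call under all 12 alternatives (-3.80 to -2.83) and with each library left out (-3.15 to -3.06). Leaving out single libraries, *Cx3cl1* ranged from -0.0032 to 0.053, *Cd200* from 0.19 to 0.24, *Cd47* from 0.10 to 0.13, *Cd200r1* without the filter from -0.18 to -0.15 and *Sirpa* from -0.028 to 0.0035. The sign of *Cx3cl1* turned to -0.0033 with median-of-ratios and -0.0048 with upper-quartile scaling. Residual components put *Cd200* (0.21) and *Cd47* (0.11) past the threshold. They are taken from the residuals of the same diet model, so they shrink the spread and leave the size of a change as it was. These calls are not further support for a change. The genes called, 503, became 298 with a mean of at least 5 TPM, 884 on FPKM, 1216 in edgeR, 1358 in DESeq2 and 2558 with the components, and the members called, 1, became 2 without the filter, 2 in edgeR, 2 in DESeq2 and 3 with the components (1 to 2 with a library left out). By Zeitgeber time edgeR called 371, 271, 299, 268, 247 and 301 genes where limma called 188, 147, 156, 132, 118 and 189. The same-numbered libraries fell short of the level set for pairing, although replicate 4 was above replicate 1 in 10 of 11 groups in TPM of *Cx3cl1*, *Cd200* and *Cd47* and in the neuron marker mean, 11 for *Sirpa*, 7 for *Cd200r1* and 6 for *Cx3cr1* and the microglia marker mean. With the replicate block 578 genes and 1 member were called for diet. At ZT2 the block called 206 of 14580 genes and 2 members, *Cx3cr1* and *Cd200* (0.62, adjusted p = 0.0154 in limma). Leaving out a library gave 150 to 194 genes and 1 to 2 members at ZT2. Rhythmic genes went from 11 to 94 on FPKM and 36 in limma in control mice (0 to 18 with a library left out), and from 89 to 215 and 135 in PLX5622 mice (38 to 114), with 0 members in each. Of the pairs, *Cd200r1* minus *Sirpa* was -0.072 on FPKM and -0.53 with a pseudocount of 0.1; with a library left out, *Cx3cl1* minus *Cd47* ranged from -0.12 to -0.080 and *Cd200* minus *Cd47* from 0.079 to 0.13. Against microglia markers on FPKM, *Cd200* in control mice gave -0.16, *Cd47* 0.082 in control and -0.083 in PLX5622 mice, and *Sirpa* 0.297 and -0.014; *Cd200r1* in PLX5622 mice gave 0.034 with a pseudocount of 0.1. Without the 2 farthest libraries *Cd47* gave 0.498 and *Sirpa* 0.616. Against neuron markers, *Cx3cr1* gave -0.21 in control mice on FPKM and -0.032 in PLX5622 mice without the 2 farthest libraries, and *Cd200r1* gave -0.14 in control mice on FPKM, -0.034 with a pseudocount of 0.1 and -0.035 without the 2 farthest libraries in PLX5622 mice. At ZT6 leaving out 1 library turned *Cd200* from 0.08 to as low as -0.0078 and as high as 0.20. The cause of these differences was not tested. The 2 to 20 reads per library limit what can be said of *Cd200r1*.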
